A study of Mus musculus with 15 samples.

Results

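The 39 protein-coding Hox genes of the mouse were followed through palate development in 15 RNA-seq libraries. They were taken as every protein-coding gene named Hox with a cluster letter from a to d and a paralogue number, which gave 39 of the 54232 genes counted and of the 21983 that code for protein. The 4 clusters hold them, with 11 Hoxa genes on chromosome 6, 10 Hoxb genes on chromosome 11, 9 Hoxc genes on chromosome 15 and 9 Hoxd genes on chromosome 2, in 13 paralogue groups. The family was chosen by measured values of these libraries, namely the high level of Hoxa5 at E14.5 and the lower one at E15.5. Levels at those stages are therefore given as a description, and tests are confined to comparisons among E13.5, E16.5 and P0.

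All groups were wild-type mice with no treatment named in the labels. Palatal shelves were dissected at embryonic days 13.5, 14.5, 15.5 and 16.5 and at birth (P0), and 3 libraries were made per stage, each from the secondary palates of 3 pooled embryos. A library is thus an average over 3 animals, and the tests measure the spread between pools. Strain and sex were not given. Total counts ranged from 21.5 to 69.0 M (1 M is 1000000 counts) per library, so the detection floor, the level of 3 counts, lay between 0.0421 and 0.131 CPM. CPM are counts scaled to a library total of 1000000 after trimmed-mean adjustment of the totals.

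Hox genes encode homeodomain transcription factors that give cells along the head-to-tail axis their regional identity. Genes at the 3′ end of a cluster, with low paralogue numbers, are switched on furthest forward, in hindbrain and branchial arches, and genes with higher numbers begin further back in the spinal cord and trunk. Neural crest of the forebrain, midbrain and front of the hindbrain, which forms the facial and palatal mesenchyme, is known as Hox-negative. Hoxa2 is the selector gene of the second branchial arch, and its loss in mice also causes cleft palate.

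Windows upstream of 5 Hox start sites are shown because the genes behind them represent the patterns described here. Hoxa5 and Hoxb8 stand for genes that differed widely between pools. Hoxa2 is the gene whose E14.5 pools all lay above its other libraries. Hoxd1 and Hoxd8 did not share the pattern of most Hox genes. Each window is the stretch of 250 bases before the annotated start in RefSeq (GRCm38.p6), read 5′ to 3′ on the gene's strand. The windows lie at chr6:52204588-52204837 (minus strand, Hoxa5), chr6:52164832-52165081 (minus strand, Hoxa2), chr11:96281655-96281904 (plus strand, Hoxb8), chr2:74762730-74762979 (plus strand, Hoxd1) and chr2:74704365-74704614 (plus strand, Hoxd8). Capitals mark matches on either strand to TGATNNAT (a paired PBX-HOX half-site), TATAAA (the TATA box core) or TTTATG (a CDX site core), which did not overlap one another in the windows shown.
Hoxa5: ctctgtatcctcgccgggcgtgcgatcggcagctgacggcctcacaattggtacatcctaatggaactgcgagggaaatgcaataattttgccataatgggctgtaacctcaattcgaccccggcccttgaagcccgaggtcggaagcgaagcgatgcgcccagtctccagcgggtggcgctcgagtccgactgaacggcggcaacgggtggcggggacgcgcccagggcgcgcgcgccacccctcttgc
Hoxa2: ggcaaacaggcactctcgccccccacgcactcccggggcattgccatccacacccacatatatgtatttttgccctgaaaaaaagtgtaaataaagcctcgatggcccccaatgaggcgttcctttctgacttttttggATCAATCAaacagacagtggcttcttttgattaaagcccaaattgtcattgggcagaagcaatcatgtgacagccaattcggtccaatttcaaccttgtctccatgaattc
Hoxb8: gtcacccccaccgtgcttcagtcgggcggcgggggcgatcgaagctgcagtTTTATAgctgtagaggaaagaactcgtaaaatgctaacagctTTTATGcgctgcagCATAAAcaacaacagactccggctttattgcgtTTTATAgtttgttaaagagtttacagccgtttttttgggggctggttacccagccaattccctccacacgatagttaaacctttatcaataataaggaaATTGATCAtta
Hoxd1: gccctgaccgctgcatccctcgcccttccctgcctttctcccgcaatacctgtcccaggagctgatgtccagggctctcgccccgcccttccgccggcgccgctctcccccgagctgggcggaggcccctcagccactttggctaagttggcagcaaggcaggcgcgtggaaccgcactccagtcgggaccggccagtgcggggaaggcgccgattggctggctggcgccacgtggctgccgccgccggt
Hoxd8: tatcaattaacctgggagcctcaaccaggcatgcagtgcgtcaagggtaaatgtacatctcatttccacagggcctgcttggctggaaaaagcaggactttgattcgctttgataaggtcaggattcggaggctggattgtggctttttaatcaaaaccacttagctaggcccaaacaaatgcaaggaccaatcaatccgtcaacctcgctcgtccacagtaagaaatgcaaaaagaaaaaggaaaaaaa

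The Hoxa2 window held 1 PBX-HOX match, and the Hoxb8 window held 1 PBX-HOX, 2 TATA and 2 CDX matches. None of these letters occurred in the windows of Hoxa5, Hoxd1 and Hoxd8. RefSeq windows were matched for 22 of the 39 genes, with 24 windows in all. PBX-HOX letters were in 4 of the 24 windows, against 7.68% of 32851 windows of the same length over all genes. TATA letters were in 4, against 12.4%, and CDX letters in 5, against 10.8%. CG dinucleotides, which were not capitalised, were in all 24 windows against 92.1% of all windows of the table, with a median of 12.5 per Hox window against 6. A match is a description of the letters and does not show that a factor binds there.

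Hox transcripts were found at every stage, and their level differed widely between pools of 1 stage. Summed over the 39 genes, the level was 122, 12.99 and 38.5 CPM in E13.5 replicates 1, 2 and 3, and 717, 261 and 113 CPM at E14.5. It was 18.98, 22.9 and 9.86 CPM at E15.5, then 89.2, 22.4 and 10.4 CPM at E16.5, and 28.9, 51.3 and 5.57 CPM at P0. E14.5 had the highest pool and the highest median, but its lowest pool lay below the highest E13.5 pool. Within a stage the highest pool exceeded the lowest by 9.42-fold at E13.5, 6.33-fold at E14.5, 2.32-fold at E15.5, 8.54-fold at E16.5 and 9.21-fold at P0. As means these are 57.9 ± 57.2, 364 ± 315, 17.2 ± 6.67, 40.7 ± 42.4 and 28.6 ± 22.9 CPM (SD, n = 3 each). In tissue pools of this kind, fewer cells that express a gene and less RNA per cell cannot be told apart.

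**Figure D1:**
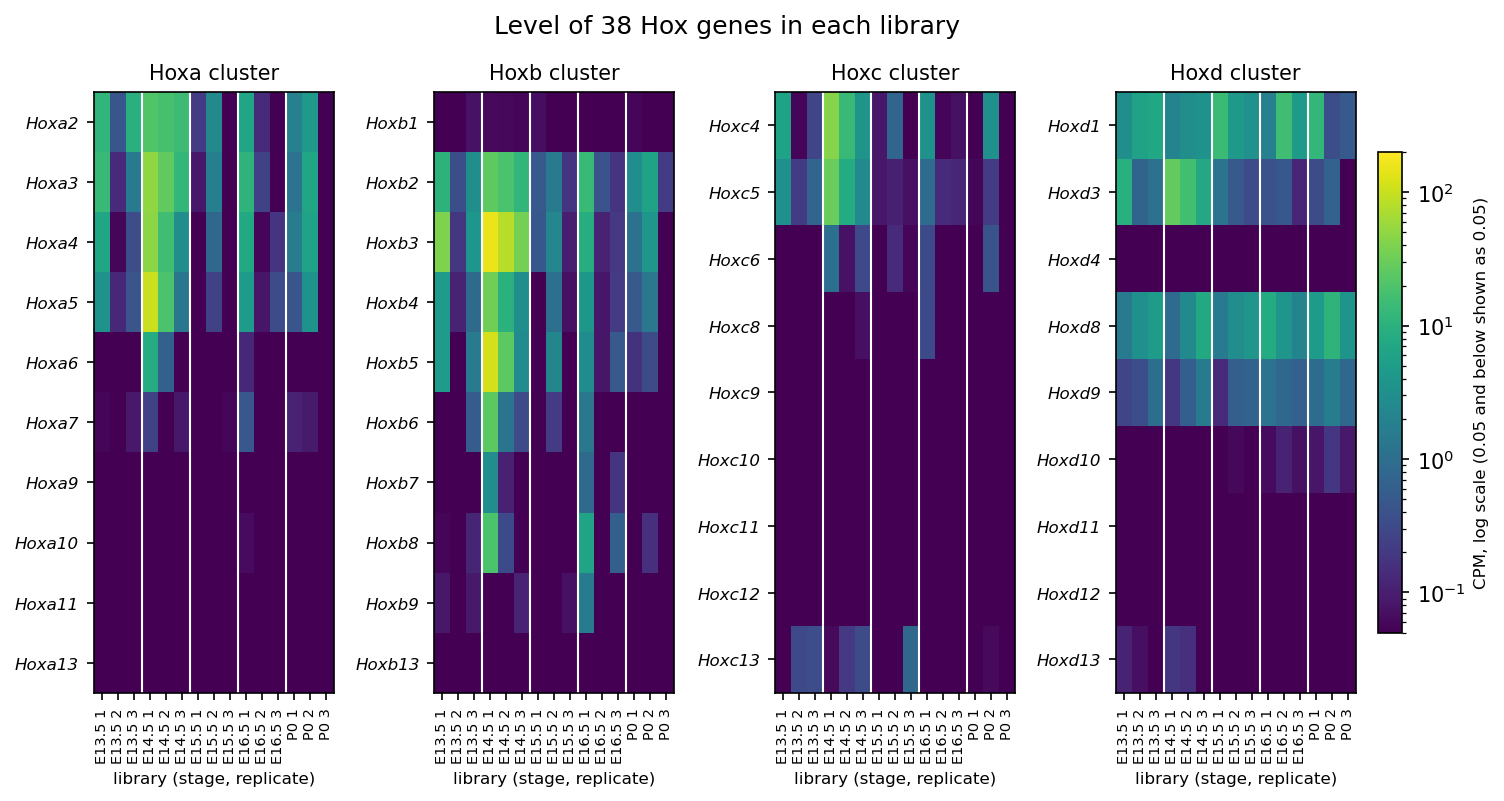
Level of each of 38 Hox genes (rows, by cluster and paralogue number) in each library (columns, by stage and replicate), as CPM on a logarithmic colour scale with values of 0.05 and below drawn as 0.05. The brightest columns are those of E14.5, led by replicate 1, and the genes with high paralogue numbers are dark in nearly all libraries.

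Most of the signal came from few genes. Of the 39 genes, 18 reached a mean of at least 1 CPM in some stage and 21 did not, while 5 had no count in any library (Hoxc9, Hoxc10, Hoxc11, Hoxc12 and Hoxd12). Each count of 0 allows a level of up to the floor. Another 7 never exceeded 3 counts in a library, so 12 of the 39 were over the floor in none: Hoxa9, Hoxa10, Hoxa11, Hoxa13, Hoxb13, Hoxd4 and Hoxd11 besides those at 0. Only Hoxb2, Hoxd1, Hoxd8 and Hoxd9 were over it in all 15 libraries. Hoxd4 shares all of its exon bases with other annotated genes and Hoxd3 keeps 37.7% of its own, so the authors' counting could not assign most Hoxd4 reads, and both levels are uncertain.

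The number of Hox genes over the floor differed in the same pools. It was 19, 16 and 21 in the 3 E13.5 libraries, 24, 23 and 22 at E14.5, and 12, 18 and 13 at E15.5. At E16.5 it was 23, 10 and 13, and at P0 it was 14, 18 and 4. In E14.5 replicate 1 the Hoxb cluster gave 53.0% of the signal, Hoxa 32.2%, Hoxc 10.6% and Hoxd 4.26%. E14.5 replicate 2 was alike, with 52.1% for Hoxb, 30.8% for Hoxa, 8.40% for Hoxc and 8.73% for Hoxd. In E16.5 replicate 2, in contrast, Hoxd genes held 93.2% and Hoxa, Hoxb and Hoxc together the small remainder. Because reads of Hoxd3 and Hoxd4 could be lost, the Hoxd shares, and sums that include paralogue groups 3 and 4, may be too low.

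Of the 18 genes with a stage mean of at least 1 CPM, 15 were highest in E14.5 replicate 1 and had their highest stage mean at E14.5. The others were Hoxd1, Hoxd8 and Hoxd9. Hoxc13 was not among the 18 but also departed from the rest. These 4 genes were set apart after their values were seen. Without them, the remaining 35 genes summed to 117, 3.23 and 25.3 CPM at E13.5, 714, 254 and 100.1 CPM at E14.5, and 2.95, 14.9 and 1.24 CPM at E15.5. Later they summed to 78.0, 2.13 and 3.06 CPM at E16.5 and 11.1, 38.4 and 0.522 CPM at P0. Every E14.5 pool except replicate 3 thus lay above all other pools, and E13.5 replicate 1 lay above E14.5 replicate 3.

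**Figure D2:**
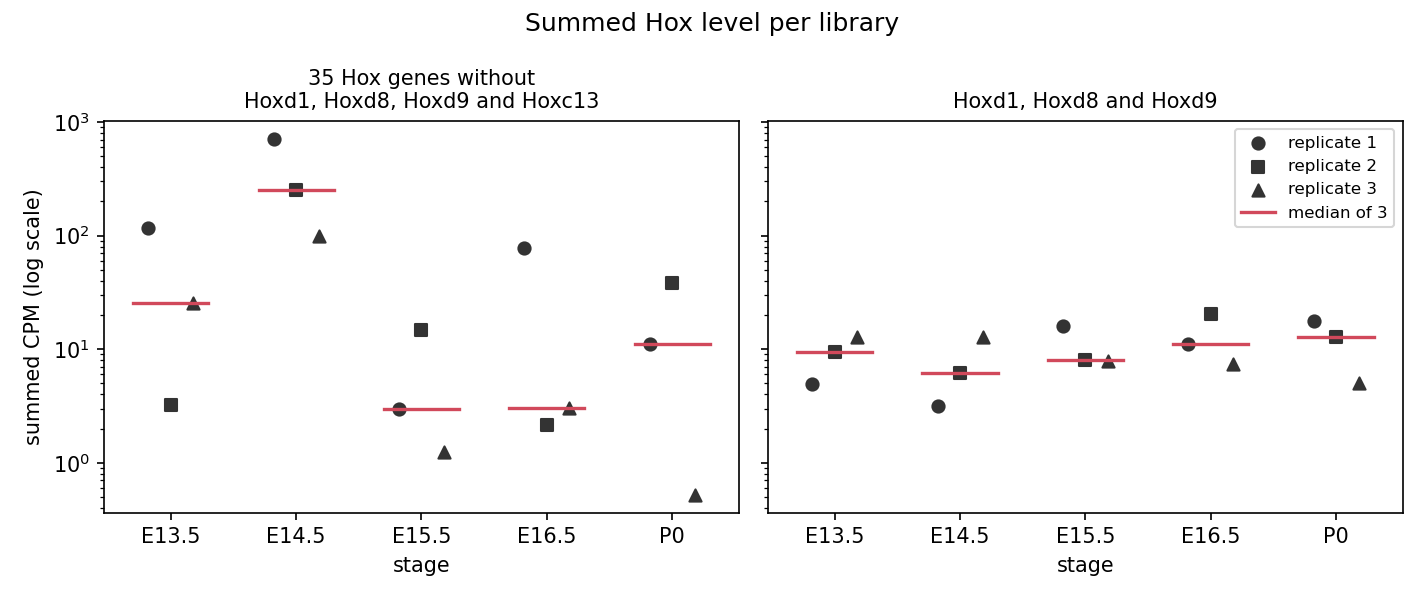
Summed CPM (logarithmic axis) of 35 Hox genes on the left and of Hoxd1, Hoxd8 and Hoxd9 on the right, by stage, with 1 symbol per replicate and a line at the median of 3. The 35 genes span 0.522 to 714 CPM, and the 3 Hoxd genes stay between 3.18 and 20.2 CPM in all 15 libraries.

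Hindbrain-level genes of paralogue groups 1 to 3, apart from Hoxb1, were over the floor in at least 12 of the 15 libraries. Hoxa2 stood at 11.9, 0.465 and 9.79 CPM at E13.5, 21.01, 17.9 and 14.7 at E14.5, and 0.219, 2.47 and 0.0434 at E15.5. It was at 6.67, 0.138 and 0.0489 CPM at E16.5 and at 1.86, 4.30 and 0 at P0. Its E14.5 mean was 17.9 ± 3.15 CPM (SD, n = 3), with 1.43-fold between the highest and lowest pool, and all 3 E14.5 pools lay above all 12 other libraries. Hoxa2 was the only one of the 20 Hox genes that passed the count filter to do so. That share is near the background of 4.10% of the 22151 tested genes, and E14.5 was a stage that chose the family. The count therefore does not set Hoxa2 or the family apart.

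Hoxb3, which acts with Hoxa3 in the hindbrain and the pharyngeal arches, stood at 40.7, 0.183 and 3.94 CPM at E13.5 and 159, 80.9 and 34.96 at E14.5. It was at 0.489, 2.36 and 0.101 CPM at E15.5, 8.68, 0.111 and 0.196 at E16.5, and 1.14, 3.87 and 0.0435 at P0. Hoxa3, known for its part in thymus, parathyroid and thyroid formation, had 13.9, 0.141 and 1.46 CPM at E13.5 and 50.6, 26.0 and 12.2 at E14.5. It was at 0.0843, 1.80 and 0.0289 CPM at E15.5, 10.8, 0.249 and 0.0489 at E16.5, and 1.19, 6.74 and 0 at P0. Both genes were lowest in P0 replicate 3 and next in E15.5 replicate 3. Hoxb2, active in the hindbrain, had 10.6, 0.366 and 3.10 CPM at E13.5 and 25.2, 18.8 and 11.9 at E14.5. Later it was at 0.506, 1.55 and 0.174 CPM at E15.5, 13.9, 0.415 and 0.171 at E16.5, and 2.91, 5.95 and 0.218 at P0. Hoxb1, the gene of rhombomere 4, did not pass 0.0743 CPM in any library.

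The genes of groups 4 and 5 differed more between pools. Hoxa5 (ENSMUSG00000038253.6, chr6:52201754-52204587, minus strand), needed in the mouse for cervical vertebrae, airway and lung, stood at 3.50, 0.127 and 0.446 CPM at E13.5 and 102, 18.9 and 1.29 at E14.5. It was at 0.0337, 0.253 and 0.0289 CPM at E15.5, 4.83, 0.0830 and 0.343 at E16.5, and 0.444, 3.45 and 0 at P0. One pool made most of the E14.5 mean of 40.6 ± 53.6 CPM (SD, n = 3), and E14.5 replicate 3 lay below E13.5 replicate 1, E16.5 replicate 1 and P0 replicate 2. Hoxa4, which patterns cervical vertebrae, had 6.79, 0.0563 and 0.357 CPM at E13.5 and 47.6, 15.9 and 3.02 at E14.5. It was at 0.0169, 0.835 and 0 CPM at E15.5, 7.77, 0.0553 and 0.171 at E16.5, and 1.69, 5.88 and 0.0435 at P0.

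Hoxb5 repeated the E14.5 order of Hoxa5, with 117, 24.4 and 2.77 CPM, and Hoxb4 stood at 32.7, 10.005 and 3.10. Hoxc4 had 44.6, 13.5 and 3.61 CPM at E14.5 and Hoxc5 30.0, 8.10 and 2.68. In each of these genes E14.5 replicate 1 was the highest of all 15 libraries and E14.5 replicate 2 the next. Before that, at E13.5, Hoxb5 was at 4.79, 0.0141 and 1.49 CPM, Hoxb4 at 4.84, 0.113 and 0.891, Hoxc4 at 6.11, 0.0563 and 0.282 and Hoxc5 at 3.18, 0.211 and 0.743. Replicate 1 led at that stage in all of them.

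At E15.5 Hoxb5 was at 0.0506, 2.15 and 0 CPM, Hoxb4 at 0.0337, 1.03 and 0.0723, Hoxc4 at 0.0843, 0.745 and 0.0434 and Hoxc5 at 0.0843, 0.104 and 0.0723. At E16.5 Hoxb5 stood at 2.81, 0.0830 and 0.514 CPM, Hoxb4 at 3.99, 0.0830 and 0.220, Hoxc4 at 3.58, 0.0553 and 0.0734 and Hoxc5 at 0.906, 0.138 and 0.122. Replicate 2 led at E15.5 and replicate 1 at E16.5. In the P0 pools Hoxb5 had 0.166, 0.335 and 0 CPM, Hoxb4 0.499, 1.34 and 0, Hoxc4 0.0277, 3.17 and 0.0435 and Hoxc5 0.0555, 0.213 and 0, so that replicate 2 led. Per kilobase of exon, which allows levels of different genes to be compared, the E14.5 means were 21.6 CPM for Hoxa5, 21.5 for Hoxb3, 17.3 for Hoxb5, 13.9 for Hoxa4, 10.1 for Hoxa2 and 8.02 for Hoxc4. Apart from Hoxa2, the E14.5 pools of each of these genes differed by more than these means do.

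Trunk-level genes of groups 6 to 9 in the Hoxa, Hoxb and Hoxc clusters were low outside E14.5 replicate 1 and E16.5 replicate 1. Hoxb8 (chr11:96281905-96285315, plus strand) had 18.9 CPM in E14.5 replicate 1 (1211 counts), 6.37 in E16.5 replicate 1 (295 counts) and at most 0.612 elsewhere. Hoxb6 stood at 24.8, 1.21 and 0.337 CPM at E14.5 and at 1.36 in E16.5 replicate 1, and its other libraries were at or below 0.565 (E13.5 replicate 3). Hoxa6 had 8.58, 0.666 and 0 CPM at E14.5 and at most 0.129 elsewhere. Hoxb7 reached 2.91 CPM in E14.5 replicate 1 and 0.885 in E16.5 replicate 1, with at most 0.171 elsewhere. Hoxb9 was at 1.55 CPM in E16.5 replicate 1 (72 counts), above its level in any E14.5 pool. Of the other genes of these groups, Hoxc6 reached 1.04 CPM, Hoxa7 0.475, Hoxc8 0.324 and Hoxa9 0.0305.

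**Figure D3:**
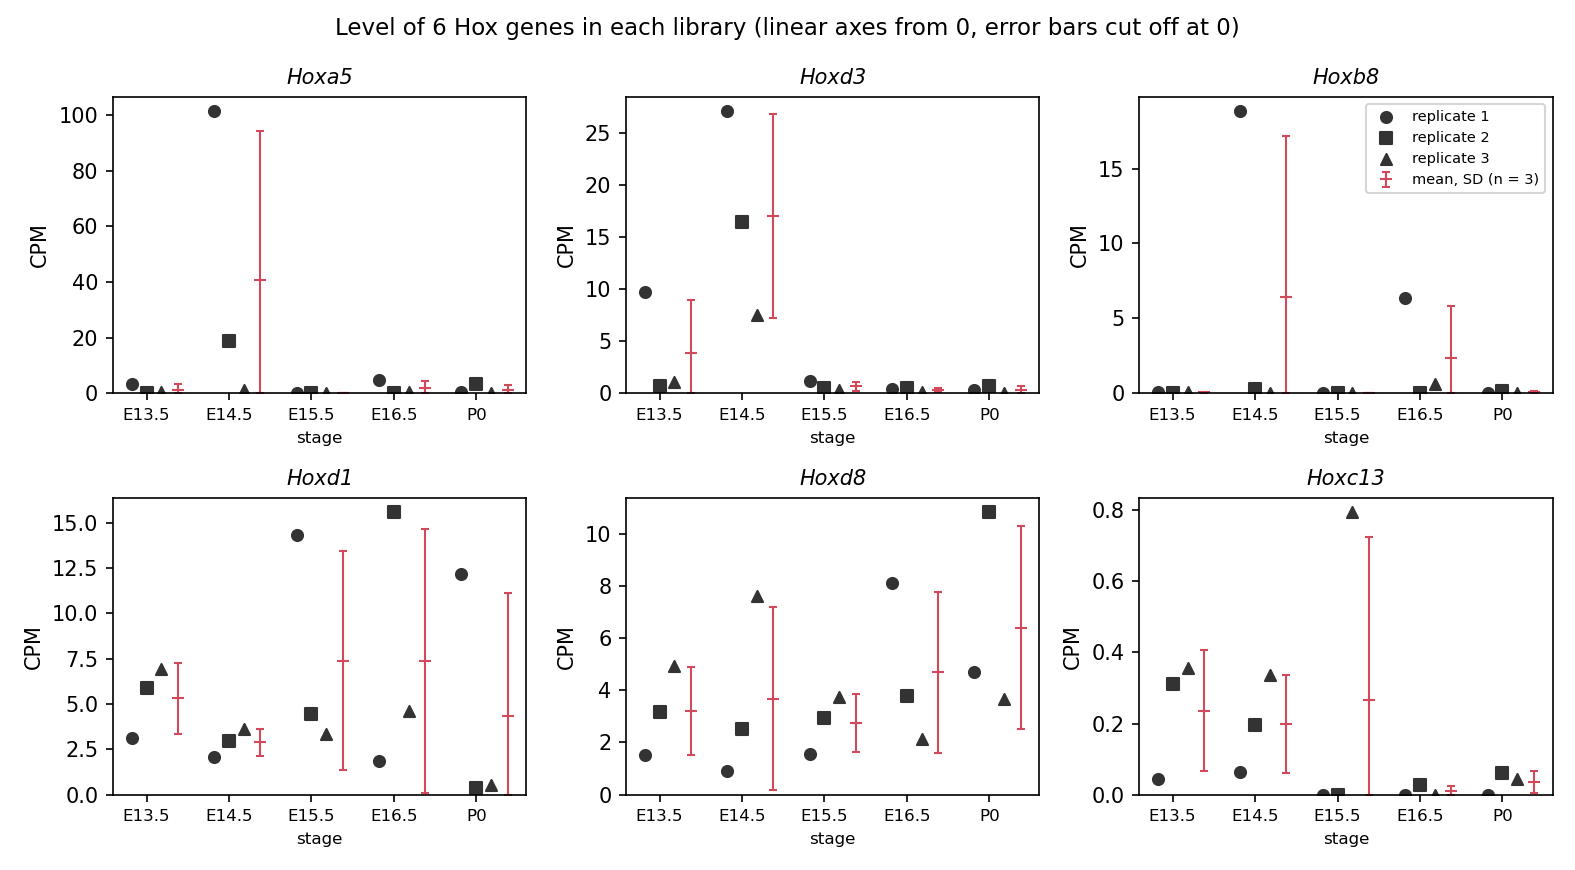
CPM (linear axes from 0) of Hoxa5, Hoxd3, Hoxb8, Hoxd1, Hoxd8 and Hoxc13 in each library by stage, with 1 symbol per replicate and the mean and SD (n = 3) beside them. Hoxa5, Hoxd3 and Hoxb8 peak in E14.5 replicate 1, whereas Hoxd1 has its highest pools at E15.5, E16.5 and P0.

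At E14.5 the excess of 1 pool over the next grew with paralogue number in the Hoxa, Hoxb and Hoxc genes listed here. The ratio of E14.5 replicate 1 to replicate 2 was 1.18 for Hoxa2 (95% exact counting interval 1.09 to 1.27), 1.95 for Hoxa3, 2.99 for Hoxa4, 5.38 for Hoxa5 (5.06 to 5.72) and 12.9 for Hoxa6. In the Hoxb cluster it was 1.34 for Hoxb2, 1.96 for Hoxb3, 3.27 for Hoxb4, 4.80 for Hoxb5, 20.4 for Hoxb6, 27.5 for Hoxb7 (13.1 to 69.3) and 59.3 for Hoxb8 (38.6 to 96.2). Hoxc4, Hoxc5 and Hoxc6 gave 3.31, 3.70 and 13.8. Among these genes, those of the same paralogue number thus had ratios of roughly like size in the Hoxa, Hoxb and Hoxc clusters, which lie on different chromosomes. They were not equal, since Hoxc5 had an interval of 3.36 to 4.08, below that of Hoxa5. In the Hoxd cluster Hoxd3 gave 1.65, near Hoxa3 and Hoxb3, but Hoxd8 gave 0.357 against 59.3 for Hoxb8. The intervals cover counting error only, the ratios compare these 2 libraries, and no test across stages rests on them.

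The step from E14.5 replicate 2 to replicate 3 had the same order in groups 2 to 5 of the Hoxa and Hoxb clusters: 1.21 for Hoxa2, 2.12 for Hoxa3, 5.28 for Hoxa4 and 14.6 for Hoxa5, and 1.58, 2.31, 3.22 and 8.82 for Hoxb2 to Hoxb5. The order did not hold in the Hoxc cluster, with 3.74 for Hoxc4, 3.02 for Hoxc5 and 0.245 for Hoxc6, and Hoxb6 stood at 3.59. Groups 1 to 3 accordingly gave 39.7% of the 35-gene sum in E14.5 replicate 1, 63.2% in replicate 2 and 82.5% in replicate 3, and groups 4 and 5 gave 52.3%, 35.7% and 16.4%. Between E16.5 replicate 1 and P0 replicate 2, the pools with the highest Hox sums of their stages, Hoxa2 to Hoxa5 had ratios of 1.55, 1.61, 1.32 and 1.40. Those are nearly level, while Hoxb2 to Hoxb5 gave 2.34, 2.24, 2.98 and 8.37 and Hoxb8 41.8 (17.7 to 130). In E13.5 replicate 1 over replicate 3, Hoxa2 had 1.22 against 9.55 for Hoxa3, 19.1 for Hoxa4 and 7.85 for Hoxa5, without a steady order.

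**Figure D4:**
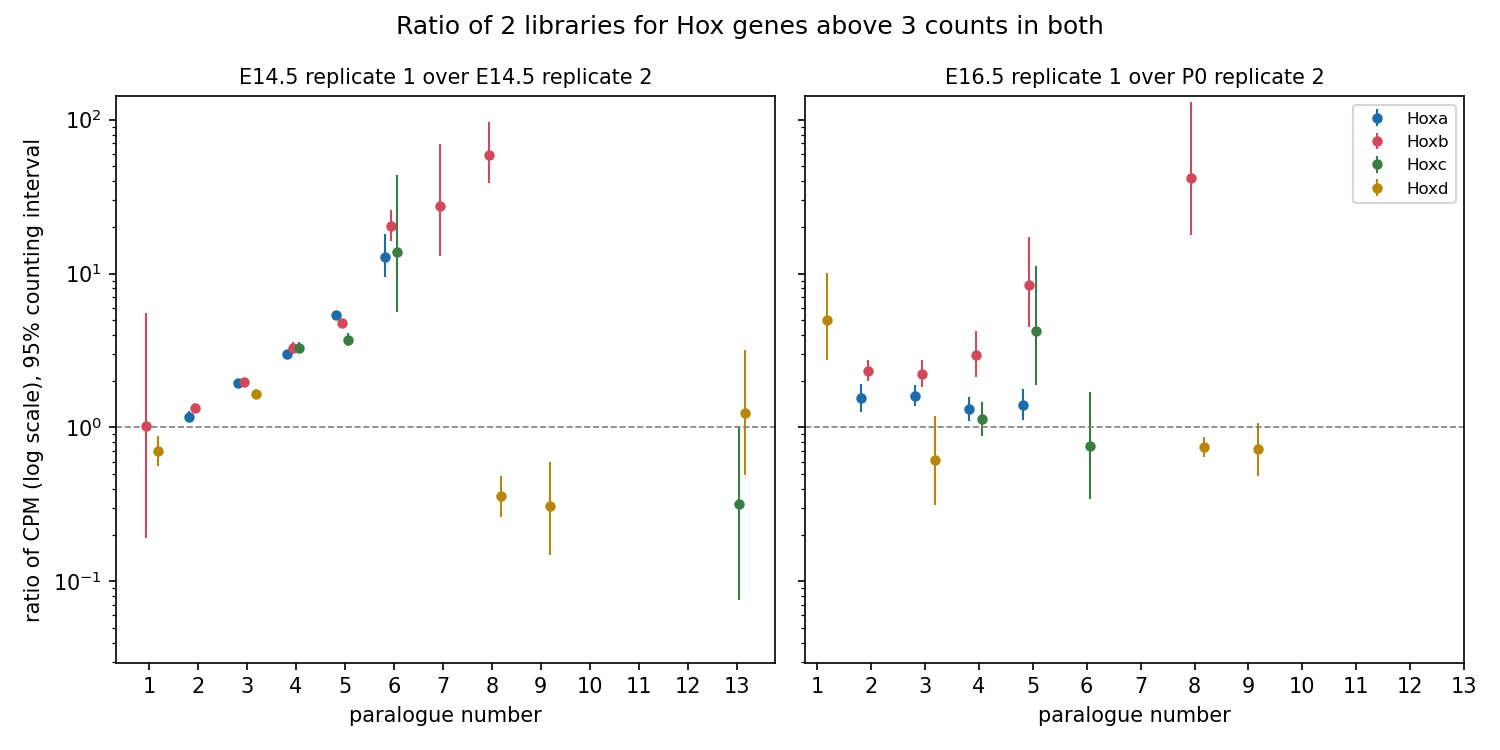
Ratio of CPM (logarithmic axis) between E14.5 replicates 1 and 2 on the left, and between E16.5 replicate 1 and P0 replicate 2 on the right, against paralogue number, for the Hox genes of the plot of levels by library that were above 3 counts in both, coloured by cluster. Bars are 95% counting intervals. On the left most Hoxa, Hoxb and Hoxc ratios climb from 1.18 for Hoxa2 to 59.3 for Hoxb8, and Hoxd1, Hoxd8, Hoxd9 and Hoxc13 lie below 1.

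Hoxd1, Hoxd8 and Hoxd9 did not share this pattern. Hoxd1 (chr2:74762980-74765142, plus strand), which in mice marks pain-sensing neurons of sensory ganglia, stood at 3.11, 5.90 and 6.92 CPM at E13.5 and 2.09, 2.98 and 3.60 at E14.5. It was at 14.3, 4.44 and 3.37 CPM at E15.5, 1.83, 15.6 and 4.62 at E16.5, and 12.2, 0.366 and 0.522 at P0. The 3 pools above 10 CPM, replicate 1 of E15.5, replicate 2 of E16.5 and replicate 1 of P0, were those in which the 35 genes summed to 2.95, 2.13 and 11.1 CPM. The same pools had the highest Prph, a neurofilament of peripheral neurons, at 697, 769 and 891 CPM, against at most 342 in the other 12 libraries. The part of such neurons in the Hoxd1 level was not tested.

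Hoxd8 was at 1.53, 3.18 and 4.92 CPM at E13.5, 0.903, 2.53 and 7.63 at E14.5, and 1.55, 2.94 and 3.76 at E15.5. At E16.5 it was 8.14, 3.79 and 2.13 CPM, and at P0 4.72, 10.9 and 3.66. The stages overlapped throughout. Hoxd9, its neighbour in the cluster, was at 0.287, 0.366 and 1.01 CPM at E13.5, 0.187, 0.605 and 1.54 at E14.5, and 0.135, 0.611 and 0.694 at E15.5. It was at 1.19, 0.830 and 0.636 CPM at E16.5 and 0.943, 1.65 and 0.827 at P0, and moved with Hoxd8 over the 15 libraries (Pearson r = 0.91 of log2 CPM). The ratio of E14.5 replicate 1 to replicate 2 was 0.700 for Hoxd1, 0.357 for Hoxd8 and 0.309 for Hoxd9, opposite to that of the genes above. Hoxc13, a hair and nail gene, was at 0.795 CPM in E15.5 replicate 3, between 0.0430 and 0.357 in the E13.5 and E14.5 pools, and at most 0.0610 in the others. E15.5 replicate 3 also had the highest Krt71 at 15.7 CPM and Krt25 at 9.98, keratins of the hair follicle. Krt71 was at most 0.2 elsewhere. The other hair and skin markers peaked in other pools. Msx2 (35.7 CPM) and Foxn1 (2.87) were highest in P0 replicate 3, Edar (8.91) in E16.5 replicate 3 and Lhx2 (93.7) in E13.5 replicate 2. The list summed highest in P0 replicate 3, at 134 CPM, where Hoxc13 was at 0.0435. The part of hair follicle cells in the Hoxc13 level was not tested.

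Correlations over the 15 libraries describe the same grouping, with the reserve that all genes share library and depth. Hoxd1, Hoxd8, Hoxd9 and Hoxc13 were set apart because their values in these libraries departed from the rest. The contrast in r between them and the rest therefore follows from that choice and is no separate evidence for it. Among the other 16 Hox genes that passed the filter, the 120 pairs had a median r of 0.80 (0.36 to 0.98). Against those 16 genes the median r was -0.23 for Hoxd1, -0.14 for Hoxd8, -0.07 for Hoxd9 and 0.04 for Hoxc13. Outside the family, of 16504 genes with at least 1 CPM on average, Dab2ip (r = 0.91), Zfp641 (0.88), Adck1, Mfhas1, Slc25a44, Ren1, Cdc42bpb, Stradb, Clpb and Tbx20 followed Hoxa5 most closely. Mfhas1, Prrt4, Cdc42bpb, Fut8, Adck1, Fgd5, Dab2ip, Zfp641, Ren1 and Arxes1 were most like the summed Hox level, at r between 0.87 and 0.90. For Hoxd1, examined after its values were seen, the closest were Isl2 (0.97), Ppp1r1c, D130009I18Rik and Prdm12 (0.95), with Pou4f3 and P2rx3 also in the first 10; Prdm12, Isl2 and P2rx3 are known from sensory neurons. For Hoxd8 they began with Mylk3 (0.85) and included Tbx15 (0.82).

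Some noncoding genes inside the clusters were high in the same pools as Hox genes, and others were not. Of 43 such genes 21 had no count and 7 reached a stage mean of 1 CPM, and all 7 lie on the strand opposite to the Hox genes, as do 26 of the 43. The counting used strand, so these reads are separable from those of the Hox genes. Hoxaas2 stood at 11.2, 0.352 and 8.44 CPM at E13.5, 11.3, 10.3 and 7.09 at E14.5, and 0.101, 2.09 and 0.0579 at E15.5, close to the order of Hoxa2. It was at 5.89, 0.0553 and 0.0245 CPM at E16.5 and 1.41, 4.54 and 0.0435 at P0. Hoxb3os, in the Hoxb cluster, had 5.79, 5.62 and 3.65 CPM at E14.5 and its highest level, 6.47, in E16.5 replicate 1, unlike Hoxb3.

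Hotairm1 and Gm15050 of the Hoxa cluster were highest in E16.5 replicate 1, at 3.11 and 2.57 CPM, next in P0 replicate 2, at 2.71 and 1.80, and stood at 1.42, 0.848 and 0.688 CPM and 1.21, 0.954 and 1.01 at E14.5. Hoxaas3 was highest in E14.5 replicate 1 at 3.50. Haglr, the long noncoding RNA of the Hoxd cluster, had 3.88 CPM in E15.5 replicate 1, 3.96 in E16.5 replicate 2 and 4.13 in P0 replicate 1, the same pools as Hoxd1 (r = 0.91). Hoxd3os1 stood at 0.143, 0.239 and 0.401 CPM at E13.5 and 0.777, 2.16 and 0.610 at P0. It was the 1 noncoding gene of the 7 that rose from E13.5 to P0 by edgeR's quasi-likelihood test (log2 fold change 2.18, SE 0.73, adjusted p = 0.0223). Over all tested genes 29.8% were called higher in that comparison, so 1 of 7 is not above the background. The 7 microRNA genes of the clusters had at most 2 counts each in any library, so these libraries give no level for them.

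Changes that involve E14.5 or E15.5 are descriptions only. All E14.5 pools lay above all E15.5 pools for 14 of the 20 filtered Hox genes, where the background was 27.2% of tested genes. All E14.5 pools lay above all E13.5 pools for 5 of 20, against 15.5%. Hoxb7 is among the 14 with 3 counts, the floor, in E14.5 replicate 3 against 2 in E15.5 replicate 2. Only 15 Hox genes passed the filter in the fit to the 9 libraries of E13.5, E16.5 and P0. Some of the 20 thus passed only with E14.5 and E15.5 included. Fitted differences from E14.5 to E15.5 were negative for 18 of 20 genes, from -8.55 for Hoxa5 (SE 2.32, log2) to 1.35 for Hoxd1, with a median of -5.42. Differences from E13.5 to E14.5 were positive for 18 of 20, with a median of 2.79, and those from E15.5 to E16.5 for 17 of 20, with a median of 1.87. The stages were part of how the genes were picked, so no more is read from these counts.

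From E13.5 to P0, few Hox genes passed the test. By edgeR's quasi-likelihood test with Benjamini-Hochberg adjustment over 22151 genes, 2 of 20 fell and 0 rose, against a background of 56.6% called, 29.8% higher and 26.8% lower. Hoxd3, which with Hoxa3 shapes the upper cervical vertebrae and which stood at 27.2, 16.4 and 7.53 CPM at E14.5 and 1.16, 0.507 and 0.333 at E15.5, fell from 9.75, 0.733 and 1.13 CPM at E13.5 to 0.333, 0.671 and 0 at P0 (log2 fold change -3.46, SE 1.118, adjusted p = 0.0186). The groups do not overlap. Hoxc5 (chr15:102967443-103017429, plus strand) fell from 3.18, 0.211 and 0.743 CPM to 0.0555, 0.213 and 0 (log2 fold change -3.82, SE 1.32, adjusted p = 0.0258), and its highest P0 pool lies just above its lowest E13.5 pool. Both calls rest on E13.5 replicate 1: without it the log2 fold changes were -1.42 (adjusted p = 0.214) and -2.30 (adjusted p = 0.151). They were also lost without P0 replicate 1 (adjusted p = 0.0572 and 0.0864), and that of Hoxc5 without P0 replicate 3 (0.0745). With only the 6 libraries of the contrast, the Hoxd3 call was lost (-3.44, adjusted p = 0.0721). The median log2 fold change of the 20 Hox genes was -0.79, against 0.03 over all tested genes. In the fit to the 9 libraries of E13.5, E16.5 and P0, 15 Hox genes passed the filter rather than 20.

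Other Hox genes did not pass. Hoxa5 had a log2 fold change of -0.04 (SE 1.69) and Hoxd1 of -0.28 (SE 1.08, adjusted p = 0.842), so that differences of several-fold in either direction were not detectable with this spread. The Hoxd1 value hangs on single pools: without P0 replicate 1 it was -3.55 (adjusted p = 0.0098), and without P0 replicate 2 it was 0.28. Hoxd8 stood at 1.00 (SE 0.74, adjusted p = 0.262) and Hoxd9 at 1.04 (SE 0.73, adjusted p = 0.239).

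Between E16.5 and E13.5, 1 Hox gene of 20 rose and 1 fell, against a background of 48.2% called, 25.2% higher and 23.0% lower. Hoxd3 fell again, to 0.410, 0.498 and 0.122 CPM (log2 fold change -3.49, SE 1.11, adjusted p = 0.0205), which was lost without E13.5 replicate 1 (-1.44, adjusted p = 0.221), E16.5 replicate 1 (0.0572) or E16.5 replicate 3 (0.0674). This contrast and the previous one share the E13.5 libraries. Hoxb7 rose from 0, 0.0141 and 0.0149 CPM to 0.885, 0 and 0.171 (log2 fold change 4.93, SE 1.92, adjusted p = 0.0498). In fits to the 9 libraries of E13.5, E16.5 and P0, or to the 6 of the contrast, neither Hoxb7 nor Hoxb8 passed the count filter, so this call depends on stages that chose the family. The Hoxb7 call was lost without E16.5 replicate 1 (2.98, adjusted p = 0.319) and in 4 of the 5 other settings that left out a library, and E16.5 replicate 2 had no count. With only 2 counts in the E13.5 group, against 48 at E16.5, the ratio of summed counts was 40.5 with a 95% counting interval of 10.6 to 344. Hoxb8 did not pass, at 4.97 (SE 2.06, adjusted p = 0.0624), and the median over the 20 genes was 0.10 against 0.02 over all.

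From E16.5 to P0, 0 of 20 Hox genes passed in edgeR, against a background of 0.352%, and 0 in DESeq2. In edgeR 1 had an unadjusted p under 0.05, Hoxb8 (log2 fold change -5.14, SE 2.27, adjusted p = 0.404), whose level rests on E16.5 replicate 1. The median was -0.45 against 0.00 over all tested genes.

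Partners of Hox proteins were present in all libraries, and 6 of 9 were lower by the test at E16.5 and at P0 than at E13.5. PBX, MEIS and PKNOX proteins of the TALE class are homeodomain partners that bind DNA together with Hox proteins, and many tissues without Hox expression use them too. All 9 were detected in every library; 6 of 9 fell from E13.5 to P0 and 0 rose, with a median log2 fold change of -1.14, where 26.8% of all tested genes were called lower. The list summed to 1075, 1067 and 870 CPM at E13.5 and to 1446, 1221 and 1013 at E14.5, which overlap, and to between 364 and 548 CPM in the 9 later libraries. Meis2 had means of 208 ± 44.8 CPM at E13.5 and 373 ± 87.2 at E14.5 (SD, n = 3). From E13.5 to P0 Meis2 fell by 2.09 on the log2 scale (SE 0.27, adjusted p = 5.21e-05), Pbx3 by 2.10 and Meis1 by 1.68. From E13.5 to E16.5, 6 of 9 fell, with a median of -0.89, against 23.0% of all genes called lower, and 0 changed between E16.5 and P0.

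Among 18 chromatin regulators that keep Hox clusters silent or active, 14 fell from E13.5 to P0 and 0 rose, against 26.8% lower and 29.8% higher over all tested genes. From E13.5 to E16.5 14 also fell, with Phc2 in place of Kdm6a, against 23.0% of all genes, and 0 changed from E16.5 to P0. Cbx2 and Ezh2, Polycomb subunits, fell by 1.90 and 1.89 on the log2 scale from E13.5 to P0, and Kmt2a, which maintains Hox transcription, by 1.51. Of 14 factors that act upstream of Hox genes 11 were tested, and from E13.5 to P0 3 rose and 4 fell, shares near the 29.8% and 26.8% of all tested genes. Cyp26b1, which degrades retinoic acid, stood at 118 ± 24.5 CPM at E13.5 and 14.9 ± 1.11 at P0 (SD, n = 3). It fell by 2.99 on the log2 scale (SE 0.26, adjusted p = 4.92e-06 in edgeR). Egr2, the rhombomere regulator that is also used by Schwann cells, rose by 2.85. The Cdx genes, activators of posterior Hox genes, reached at most 0.131 CPM for Cdx1, 0.0305 for Cdx2 and 0.0277 for Cdx4.

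Homeobox genes at the ends of the Hox clusters and in other clusters had a different course. Evx2, next to Hoxd13, stood at 2.79, 6.78 and 0.357 CPM at E13.5, 10.1, 6.77 and 4.16 at E14.5 and at most 0.0553 in the 9 later libraries. Evx1, next to Hoxa13 and a gene of spinal interneurons, had 2.90, 4.42 and 0.906 CPM at E13.5 and 9.97, 7.07 and 3.43 at E14.5, and at most 0.371 later. The Hox genes beside them, Hoxa13 and Hoxd13, did not exceed 0.0149 and 0.187 CPM. Of 9 genes in this list 5 were tested, and Evx1, Evx2, Gsx1 and Gsx2 fell from E13.5 to P0 and from E13.5 to E16.5, with list medians of -4.54 and -5.71, against 26.8% and 23.0% of all genes called lower. Of the 8 cluster neighbours, Skap2 rose from E13.5 to P0 by 1.55 (SE 0.38, adjusted p = 0.0043), and Lnpk fell by 1.03 along with Evx1 and Evx2.

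Markers of other tissues differed between pools alongside the Hox level, and their part in the Hox values was not tested. In palate mesenchyme, all 11 markers were present, with a sum from 185 to 643 CPM, and Osr2 (16.9 to 73.0) and Pax9 (23.8 to 94.2) were found in every library. Neuronal genes (7 markers) summed to 5219, 3564 and 2328 CPM at E14.5, in the order of the Hox sum, against 778 to 2862 elsewhere. The highest of the latter was in E13.5 replicate 2, which had the lowest Hox sum of its stage. At no other stage did the pools follow the order of the Hox sum. Neuronal genes summed to 1613, 2862 and 827 CPM at E13.5 and to 955, 1835 and 1099 at E16.5. Hindbrain and spinal cord genes (11 markers) summed to 235, 218 and 137 CPM at E14.5 and to 42.6 to 138 elsewhere. Among them Pax2 stood at E14.5 at 67.1, 44.2 and 19.4, while Lbx1, of dorsal hindbrain and spinal interneurons, had 24.3, 19.5 and 9.12.

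E14.5 replicate 1 was also highest for Ttr, the carrier protein made by choroid plexus and liver, at 1224 CPM, with 8.64 and 673 in the other E14.5 pools. Ttr did not follow the Hox level, since E14.5 replicate 2 had 8.64 CPM and the second-highest Hox sum. E14.5 replicate 1 was picked for its summed Hox level, and Hoxa5 at E14.5 chose the family. High ratios of Hox genes in that library therefore follow from the choice. Of 11326 genes with at least 10 CPM there, Hoxb6 and Hoxa5 had the highest ratios to the highest other library, at 18.2 and 5.38. The leading genes outside the family were Barhl1 (4.90), Gbx1 (3.31), Pou4f2, Barhl2, Npy, Zic4, Tfap2d, Grm5, Zic1 and Slc1a2 (2.16). Several of these are transcription factors of the developing hindbrain, midbrain and spinal cord.

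E16.5 replicate 1 and P0 replicate 2, with the highest Hox sums of the late stages, carried markers of other organs. Tg, the thyroglobulin of the thyroid, was at 4058 CPM in E16.5 replicate 1 and at most 6.18 elsewhere, and Pth, the parathyroid hormone, at 116 against 0.111. Scgb1a1, a secretory protein of airway epithelium, was at 21.6 CPM there against 0.348. Dbh, of noradrenergic cells, was at 88.7 CPM in E16.5 replicate 1, 125 in P0 replicate 2 and at most 16.7 elsewhere, the latter in E15.5 replicate 2, which had the highest 35-gene sum of its stage. Th was at 68.6 and 95.04 CPM in the first pair and at most 18.1 in the others. For both genes these other libraries include the E14.5 pools, whose 35-gene sums were 714, 254 and 100.1 CPM.

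The remaining marker lists are given by the range of their summed CPM over the 15 libraries. Skeletal muscle genes ran from 247 to 17625 CPM, with the highest values in E16.5 replicate 1 and P0 replicate 2, and peripheral neuron and Schwann cell genes from 225 to 1378. Thyroid and parathyroid genes summed to 4410 CPM in E16.5 replicate 1 and to at most 29.3 elsewhere, while lung and trachea genes ran from 10.8 to 78.5. Thymus genes stayed between 1.08 and 4.01 CPM and gut genes between 0.0843 and 1.65, with Fabp1 at 0 throughout. Among liver genes, Alb, Afp, Apoa1 and Serpina1a stayed under 1 CPM in all libraries, so that the liver sum of 1225 CPM in E14.5 replicate 1 was Ttr, and the kidney genes Wt1 and Umod stayed under 1 CPM too. Limb genes ran from 23.0 to 94.4 CPM, with Tbx5 at most 1.31. Larynx, hyoid and cervical mesenchyme genes ran from 84.3 to 216 CPM, hair and skin genes from 8.59 to 134, and oral epithelium genes from 192 to 2444. Choroid plexus genes ran from 43.4 to 1434 CPM, head and forebrain factors from 12.3 to 264, blood genes from 401 to 2047, mast cell genes from 0.659 to 145 and endothelial genes from 208 to 523.

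**Figure D5:**
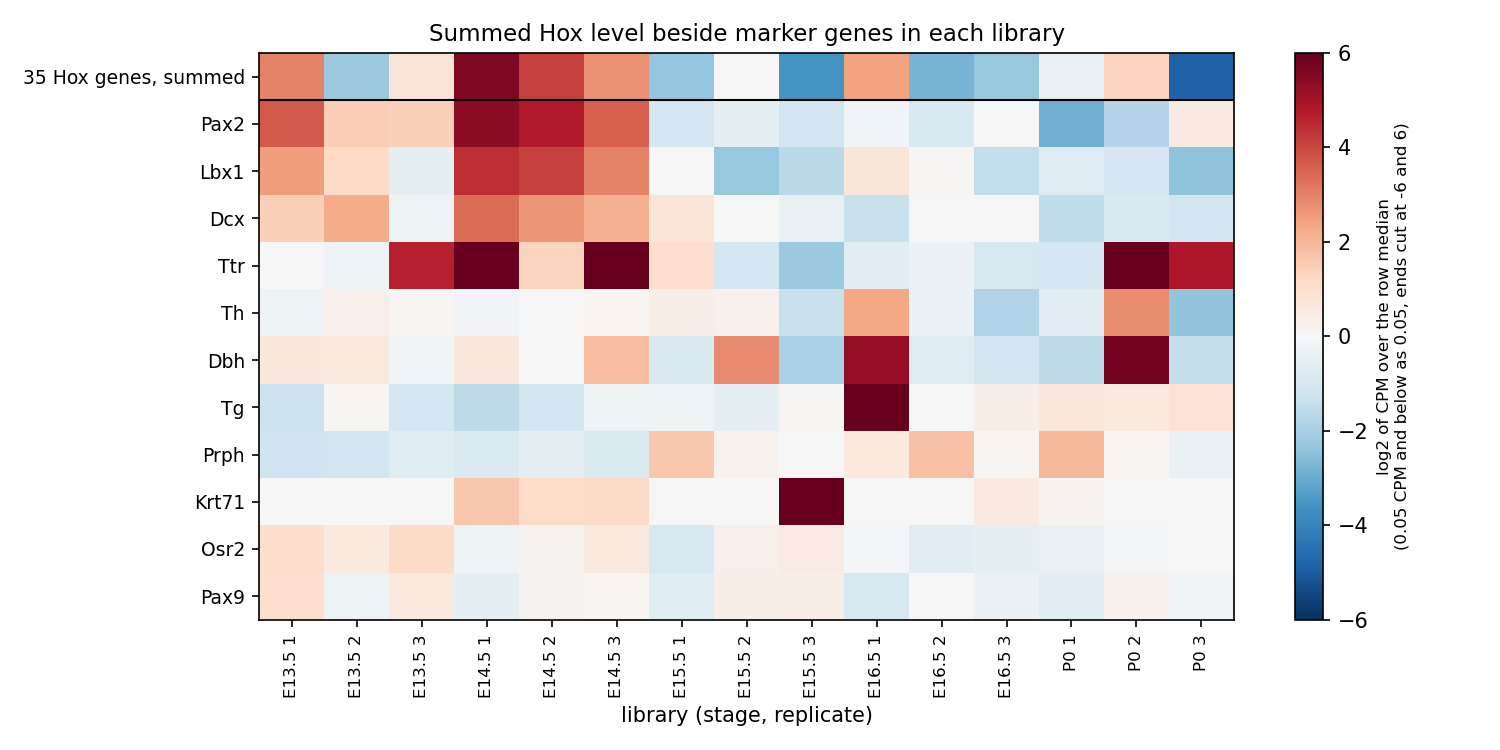
Summed level of 35 Hox genes (top row) and of 11 marker genes in each library, as log2 of CPM over the row's median, with ends limited to -6 and 6. Pax2 and Lbx1 are high in the E14.5 columns with the Hox row, Tg only in E16.5 replicate 1, Dbh and Th in E16.5 replicate 1 and P0 replicate 2, and Osr2 and Pax9 span 16.9 to 73.0 and 23.8 to 94.2 CPM.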

How the data were processed

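Bulk RNA-seq of pooled mouse palates was analysed from a table of whole-number counts per gene that the authors deposited. Per the file headers, the counts are fragments counted with featureCounts 2.0.1, reverse-stranded, on GENCODE M18. Per the submitters' processing notes, cutadapt 3.4, FastQC 0.11.9, Bowtie2, HISAT2 2.2.1, SAMtools 1.12 and Subread 2.0.1 were used with the build mm10. Symbols and gene types came from GENCODE M21, in which 97.5% of positions (38 of 39 Hox genes) are identical. Fragments that overlap 2 genes on a strand can be lost, which affects Hoxd3 and Hoxd4.

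Stages came from the labels. One model with a coefficient per stage was fitted to all 15 libraries in edgeR 4.0.16 (R 4.3.3; filterByExpr with a minimum count of 10, TMM, quasi-likelihood F test, Benjamini-Hochberg over 22151 genes, threshold 0.05), and the procedure was tested on simulated data. Depth was 21.5 to 69.0 M counts. Nothing in the labels says more of the pools than that each held 3 embryos, so p-values measure only the spread between these libraries. Replicate numbers did not pair the samples: over 30 same-number pairs the median correlation of deviations was -0.0017, and 9 exceeded 0.1. The Hox genes, the 25 gene lists and the tests were chosen with earlier results of these data known. Described were Hox genes with a stage mean of at least 1 CPM or called in a test, cluster noncoding genes with such a mean, and the 10 genes most like Hoxa5. Where a gene was low in most libraries, its highest values and the upper limit of the others are given. Alternatives were DESeq2 1.42.0, its size factors, upper-quartile scaling, no filter, a mean of at least 1 CPM, fits to 9 or 6 libraries, the replicate block and leaving out each library. Fits without E14.5 replicate 1, and without E16.5 replicate 1 and P0 replicate 2, were added after the data were seen. Values of some genes are not reported here, although they stay in the sums and counts.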

Additional observations from a re-analysis of the deposited data

How the results depend on the processing

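The count of Hox genes called from E13.5 to P0, 2, was 3 in DESeq2 (with Hoxc6), 3 without a filter on low counts (with Hoxd10), 1 with only the 6 libraries of the contrast, and 0 to 2 when 1 library was left out. That from E13.5 to E16.5, also 2, was 4 in DESeq2, 1 without a filter on low counts, 1 with a mean of at least 1 CPM, 1 with the 9 libraries of E13.5, E16.5 and P0 or with 6 libraries, and 0 to 3 when 1 library was left out. From E16.5 to P0 it was 0 in every fit run. Hoxb7 and Hoxb8 have no value in the fits to 9 or 6 libraries. The cause of these differences was not tested, apart from the number of genes and libraries that each fit holds. With the replicate number as a block the counts were 2, 3 and 0, although the numbers did not pair the samples and 7 of 15 libraries correlated best with their own number. Without E16.5 replicate 1, the calls from E13.5 to E16.5 were Hoxa2 (log2 fold change -6.27, adjusted p = 0.0441 in edgeR) and Hoxb3 (-6.54, adjusted p = 0.0496).

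Of the log2 fold changes of single Hox genes under the alternatives, 112 kept their direction and side of the threshold, 17 lost and 4 gained the call (among these Hoxd1 from E13.5 to P0 without P0 replicate 1, at -3.55), and 3 changed sign. Those 3 were all Hoxd1 from E13.5 to P0, at 0.28 without P0 replicate 2, 0.24 without P0 replicate 3 and 0.29 without both E16.5 replicate 1 and P0 replicate 2. The stage medians of the summed Hox level moved by less than 1 SD of the pools with other library totals or without Hoxa5. When 1 library was left out, which must leave the median between the pools, they ranged from 25.7 to 80.4 CPM at E13.5 (38.5 with all 3), 187 to 489 at E14.5, 14.4 to 20.9 at E15.5, 16.4 to 55.8 at E16.5 (22.4 with all 3) and 17.2 to 40.1 at P0. A floor of 10 counts, or thinning to the smallest total, moved the number of Hox genes over the floor by more than 1.5 times in 9 of 30 cases, all in libraries with low Hox sums, so depth limits what can be said of the rarely counted genes there. Per kilobase, the E14.5 shares of Hoxa and Hoxb were 39.5% and 41.8%.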
